A study of Arabidopsis thaliana with 6 samples.

Results

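The genes that make, activate, break down, move and read out cytokinins were measured in the aerial parts of Arabidopsis thaliana seedlings of the Columbia accession (WT, genotype Col) and of hrlp-2, a mutant. The affected gene, HRLP (AT2G44710), codes for a protein related to the RNA-binding hnRNP R. The labels give neither the nature of the hrlp-2 allele nor its background beyond its name. Both groups had 3 libraries of total RNA, each a biological replicate per the labels, from seedlings 9 days old grown at 23 ± 2 °C in long days of 16 h light. Members were chosen by row name alone. A row entered when its name was ARR, AHK, AHP, CKX, LOG, IPT or PUP followed only by digits. The pattern found 60 of the 22759 named rows, of which 44 carry names of the cytokinin families proper and 16 names of purine permeases (PUP). Membership is by name only, and the rows AHP2 and LOG2, counted here, may be other genes. No measured value entered the pattern, but the families were proposed with results of this same comparison known. Counts of members called are therefore given as a description beside the share called over all genes.

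Cytokinins are adenine-derived hormones that promote cell division in the shoot and delay leaf ageing. Isopentenyltransferases (IPT) make the nucleotide precursors, LONELY GUY enzymes (LOG) release the active free bases, and cytokinin oxidases (CKX) degrade them. Sensor histidine kinases (AHK) bind the hormone and pass a phosphate through phosphotransfer proteins (AHP) to type B response regulators (ARR), which switch on target genes that include the type A ARRs, inhibitors of the same relay. Purine permeases are membrane carriers of adenine and related molecules, and some of them take up cytokinins.

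Values are read counts scaled to the library total (CPM) as deposited. From the step between low values, 1 CPM is an estimated 20.0 to 25.2 reads in these libraries. Tests are limma on log2(CPM + 0.5) after rescaling, with Benjamini-Hochberg adjustment over the 18643 rows that reached 0.5 CPM in at least 3 libraries, and a gene is said to have risen or fallen in hrlp-2 only where the adjusted p was under 0.05. HRLP itself measured 31.15 ± 1.65 CPM for WT and 16.56 ± 0.601 CPM for hrlp-2 (SD, n = 3 each), so its transcript was lower but present. The summed level of the root markers was 0.85 to 1.68 CPM for WT and 1.0 to 2.26 CPM for hrlp-2, with 6 of 8 markers having a row and CASP2 and CASP4 at 0 in every library. The 3 green-tissue markers with a row, of 4 listed, summed to 20170 to 20426 CPM for WT and 19994 to 20365 CPM for hrlp-2, with LHCB4.1 and PSBO1 higher and LHCB1.1 lower in hrlp-2. The 4 shoot apical meristem markers with a row, of 5 listed, summed to 40.5 to 42.3 CPM for WT and 44.3 to 48.0 CPM for hrlp-2, most of it CLV1, which rose from 34.5 to 39.8 CPM. KNAT1 was lower in every hrlp-2 library (2.94 to 3.65 CPM) than in every WT library (3.73 to 4.17 CPM), at an adjusted p of 0.401, and the median log2 fold change of the 3 tested meristem markers was -0.09. CLV3 was at or under 0.09 CPM in every library, and STM measured 2.80 CPM for WT and 2.58 CPM for hrlp-2 (adjusted p = 0.773). The part of these marker levels in the results below was not tested. In RNA from whole aerial parts, fewer cells of a type and less RNA per cell cannot be told apart.

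Of the 60 members, 44 passed the filter on low values; 11 of them rose in hrlp-2, 1 fell and 32 did not pass the test. That is 27.3% called, beside 20.4% over all rows tested, 11.0% of which were called higher and 9.31% lower. The 3 hrlp-2 libraries did not overlap the 3 WT libraries for 15 of the 44 members (34.1%), beside 33.4% over all rows. Among the cytokinin families without PUP, 6 of 32 tested members rose (AHK2, AHK3, ARR1, ARR2, ARR4 and ARR5) and LOG1 fell. That is 21.9% called and 31.25% without overlap, close to the 20.4% and 33.4% over all rows. Their median log2 fold change was 0.04, and their summed level was 736.7 ± 21.0 CPM for WT and 738.3 ± 7.0 CPM for hrlp-2. Among the purine permeases, 5 of 12 tested members rose (PUP1, PUP7, PUP14, PUP18 and PUP22) and 0 fell, with a median log2 fold change of 0.25. That is 41.7% called and 41.7% without overlap, beside the same 20.4% and 33.4% over all rows. The median over all rows tested was 0.00.

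**Figure D1:**
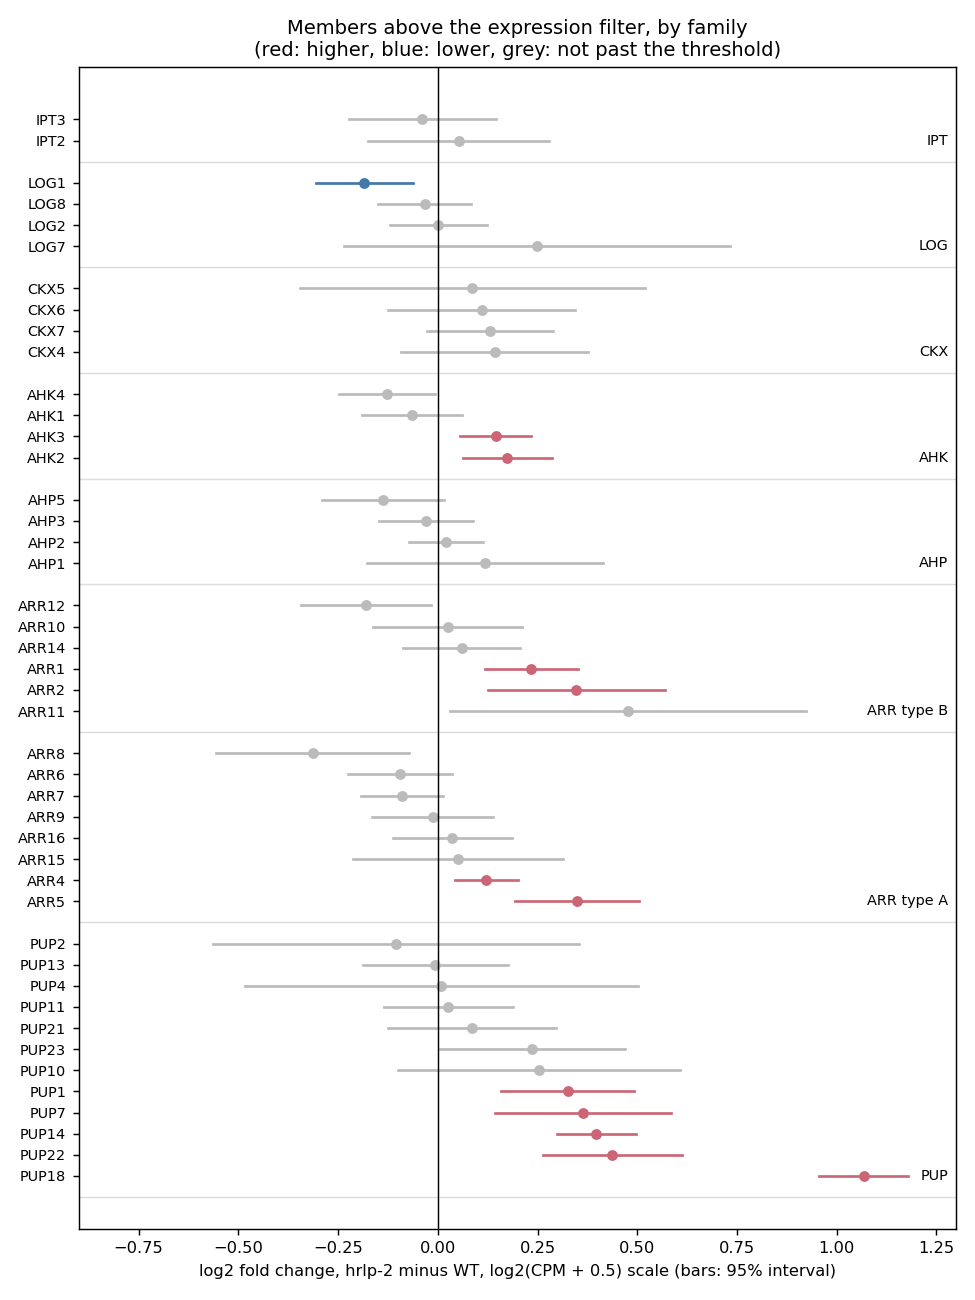
Log2 fold change (hrlp-2 minus WT, on the log2(CPM + 0.5) scale) of the 44 tested members by family, with bars for the 95% interval from limma. PUP18, at 1.07, lies apart from the other members, whose values run from -0.31 to 0.48.

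Among the receptors, AHK2 and AHK3 rose slightly and AHK4 did not pass the test. Of the 4 tested AHK rows, AHK1 included, 50% were called, beside 20.4% over all rows tested. AHK2 (AT5G35750) measured 32.45, 32.51 and 29.65 CPM in the WT libraries and 36.49, 33.92 and 34.99 CPM in the hrlp-2 libraries. Every hrlp-2 library was above every WT library, and hrlp-2 differed from WT by 0.17 on the log2 scale (SE 0.0549; limma adjusted p = 0.0217). AHK3 (AT1G27320), a receptor known for its role in leaf ageing, measured 61.75, 64.66 and 65.81 CPM for WT and 73.02, 71.03 and 65.79 CPM for hrlp-2. The lowest hrlp-2 library lay within the WT values, and hrlp-2 differed from WT by 0.14 on the log2 scale (SE 0.0435; adjusted p = 0.0157). AHK4 (also CRE1, the receptor with a known role in root vasculature) measured 26.71, 29.45 and 27.48 CPM for WT and 25.49, 24.98 and 24.86 CPM for hrlp-2. All hrlp-2 libraries lay below all WT libraries, with a log2 fold change of -0.13 (95% interval -0.25 to -0.01) and an adjusted p of 0.138. AHK1, a histidine kinase linked to osmotic stress rather than cytokinin binding, measured 31.96 ± 0.410 CPM for WT and 30.22 ± 3.12 CPM for hrlp-2 (adjusted p = 0.521), and AHK5 was under the filter, at 0.45 CPM or less. Without hrlp-2 replicate 1 both calls were lost, at adjusted p = 0.105 for AHK2 and 0.107 for AHK3. AHK2 was also lost without WT replicate 3 (0.132) and without hrlp-2 replicate 3 (0.0514), and AHK3 without WT replicate 1 (0.0818) and without hrlp-2 replicate 2 (0.0704).

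The 4 tested rows with AHP names did not pass the test, and their log2 fold changes ran from -0.14 to 0.12. AHP5 measured 16.97, 17.12 and 16.70 CPM for WT and 15.53, 14.34 and 15.52 CPM for hrlp-2. Its groups did not overlap, but the adjusted p was 0.21. AHP3 measured 35.87 ± 3.01 CPM for WT and 34.58 ± 1.38 CPM for hrlp-2, and AHP1 5.19 ± 0.523 and 5.70 ± 1.56 CPM. The row named AHP2 measured 46.48 ± 1.22 and 46.49 ± 0.949 CPM. That name is carried by a phosphotransfer gene (AT3G29350) and by a meiotic recombination gene (AT1G13330), and the row's identity is unresolved. AHP6, which lacks the phosphate-accepting histidine and inhibits the relay, was at 0.14 CPM or less in every library, and AHP4 at 0.55 CPM or less.

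Of the 6 tested type B response regulators, the transcription factors of the relay, ARR1 and ARR2 rose and 0 fell. The share called was 33.3%, beside 20.4% over all rows tested. ARR1 (AT3G16857) measured 29.60, 27.85 and 26.98 CPM for WT and 33.91, 31.12 and 33.15 CPM for hrlp-2. All hrlp-2 libraries lay above all WT libraries, and hrlp-2 differed from WT by 0.23 on the log2 scale (SE 0.0573; limma adjusted p = 0.00304). ARR2 measured 6.59, 7.41 and 6.83 CPM for WT and 9.69, 8.04 and 8.84 CPM for hrlp-2. The groups again did not overlap, with a log2 fold change of 0.35 (SE 0.109, adjusted p = 0.021). The ARR2 call was lost when leaving out WT replicate 1 (adjusted p = 0.074), WT replicate 3 (0.0566), hrlp-2 replicate 1 (0.118) or hrlp-2 replicate 3 (0.0554), whereas ARR1 stayed past the threshold in all 15 alternatives (adjusted p up to 0.0237). ARR12, which acts with ARR1 and ARR10 in most cytokinin responses, had its libraries in the opposite order. It measured 14.84, 14.95 and 16.48 CPM for WT and 13.50, 13.39 and 13.17 CPM for hrlp-2, with a log2 fold change of -0.18 (95% interval -0.34 to -0.02, adjusted p = 0.117). ARR11 was low, at 0.75 to 0.98 CPM for WT and 1.11 to 1.93 CPM for hrlp-2, without overlap (adjusted p = 0.129). ARR10 measured 12.84 ± 1.26 and 12.89 ± 1.22 CPM and ARR14 17.18 ± 0.144 and 17.69 ± 0.886 CPM, and ARR18 was at 0.08 CPM or less. ARR1 overlaps COBL8 on the opposite strand by 69 bases in TAIR10.1, and the strand setting of the counting is not given in the sources used here. COBL8 measured 1.48 ± 0.235 CPM for WT and 2.30 ± 0.678 CPM for hrlp-2 (adjusted p = 0.0748).

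Of the 8 tested type A response regulators, rapid cytokinin-response genes and inhibitors of the relay, ARR4 and ARR5 rose and 0 fell, and the other 6 did not pass the test. The median log2 fold change was 0.01, and 25% were called, beside 20.4% over all rows tested. ARR5 (AT3G48100) measured 14.29, 15.26 and 16.84 CPM for WT and 19.38, 20.23 and 18.97 CPM for hrlp-2. Its groups were apart by more than 2 CPM, with a log2 fold change of 0.35 (SE 0.0759, limma adjusted p = 0.000902), and it passed in all 15 alternatives (adjusted p up to 0.00996). ARR4 (AT1G10470) measured 83.23, 81.42 and 86.23 CPM for WT and 85.89, 91.86 and 91.66 CPM for hrlp-2. The highest WT library was above the lowest hrlp-2 library, and hrlp-2 differed from WT by 0.12 on the log2 scale (SE 0.0387; adjusted p = 0.0225). That call was lost on the CPM without rescaling (adjusted p = 0.0602) and when leaving out WT replicate 1 (0.0516), WT replicate 2 (0.125), hrlp-2 replicate 2 (0.11) or hrlp-2 replicate 3 (0.0966).

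Among the type A regulators that did not pass the test, ARR7 (AT1G19050) measured 38.87, 41.60 and 40.06 CPM for WT and 35.82, 38.41 and 37.38 CPM for hrlp-2. Its hrlp-2 libraries lay below its WT libraries by a gap smaller than the spread within either group (log2 fold change -0.09, adjusted p = 0.234). ARR6 measured 25.53, 23.82 and 25.29 CPM for WT and 21.76, 24.30 and 22.79 CPM for hrlp-2. The groups overlapped through hrlp-2 replicate 2. ARR9 measured 24.79, 23.19 and 21.00 CPM for WT and 22.71, 19.83 and 25.00 CPM for hrlp-2. ARR15 measured 5.53, 6.39 and 5.30 CPM for WT and 5.08, 6.89 and 5.75 CPM for hrlp-2. ARR16 measured 18.76, 18.72 and 21.95 CPM for WT and 20.21, 18.88 and 20.95 CPM for hrlp-2. The groups overlapped for ARR9, ARR15 and ARR16. On the opposite strand, ARR6 overlaps AT5G62910 by 348 bases and ARR9 overlaps the noncoding AT3G08825 by 231 bases. ARR3 was at 0.14 CPM or less. ARR3 and ARR4 share an identical run of 41 bases, ARR8 and ARR9 one of 41 bases as well, and ARR1 and ARR2 one of 38 bases. A read lying wholly inside such a run matches both genes of the pair. Read length, multiple mapping and stretches alike but for mismatches were not examined.

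ARR8 (AT2G41310) stood apart through 1 library. It measured 29.26, 29.62 and 53.82 CPM for WT and 31.36, 26.98 and 27.30 CPM for hrlp-2, and WT replicate 3 was at least 1.5-fold above both other WT libraries. On CPM + 0.5, ARR8 was the only one of the 44 tested members with a library that far above both others of its group; members under the filter were not examined for this. The log2 fold change was -0.31 (95% interval -0.56 to -0.07, limma adjusted p = 0.0591), and without WT replicate 3 it was -0.02 (adjusted p = 0.868). With that library kept, ARR8 was called lower without WT replicate 1 (adjusted p = 0.00454), WT replicate 2 (0.0145) or hrlp-2 replicate 1 (0.042), on the CPM without rescaling (0.0436) and with a filter of 1 CPM (0.0417). A noncoding transcript, AT2G09250, overlaps ARR8 on the opposite strand by 299 bases. Its row measured 0, 0 and 16.20 CPM in the WT libraries and 0.01, 1.34 and 0 CPM in the hrlp-2 libraries, so the library that was high for ARR8 was high for its antisense neighbour as well. Reads from the overlap cannot be assigned to 1 of the pair without the strand setting. The summed type A level was 240.3, 240.0 and 270.5 CPM for WT and 242.3, 247.4 and 249.9 CPM for hrlp-2; without ARR8 it was 211.0, 210.4 and 216.7 CPM for WT and 210.9, 220.4 and 222.6 CPM for hrlp-2.

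**Figure D2:**
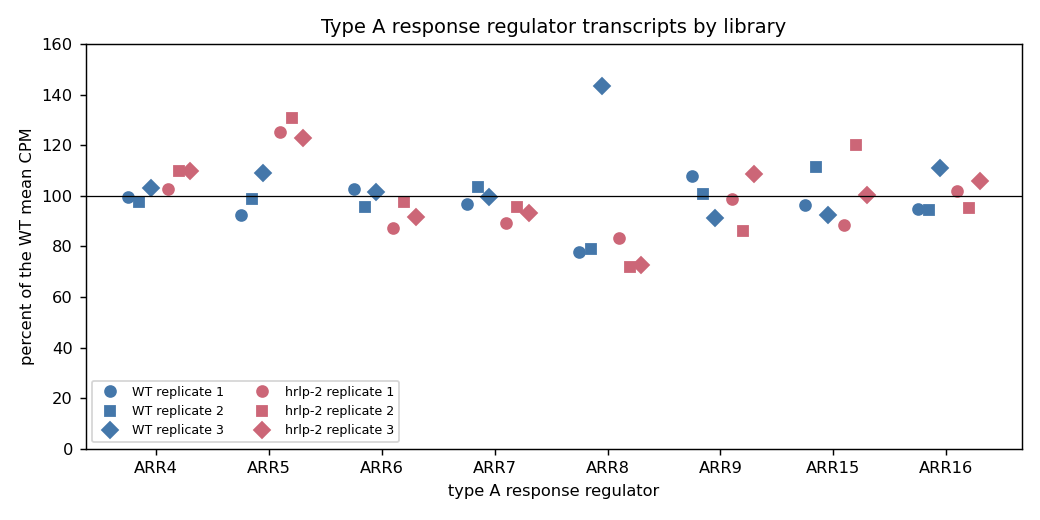
Level of the 8 tested type A response regulators in each library, as a percentage of that gene's WT mean. ARR5 in hrlp-2 averages 126% of its WT mean, while ARR8 in WT replicate 3 lies far above every other library.

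AGATT is among the short sequences that type B regulators bind, and a longer form, AGATACG, is also bound by some of them. Only these motifs were searched, and other forms of the core were not counted. The 250 bases before the annotated start of ARR5, which rose, and of ARR7, which did not pass, are shown because the first passed the test and the second lay on the other side of 0; the difference between their changes was not tested. They lie at chr3:17760951-17761200 and chr1:6579315-6579564, both read from the minus strand of TAIR10.1 by the RefSeq annotation, with AGATT on either strand (AGATT or AATCT) in capitals.
ARR5: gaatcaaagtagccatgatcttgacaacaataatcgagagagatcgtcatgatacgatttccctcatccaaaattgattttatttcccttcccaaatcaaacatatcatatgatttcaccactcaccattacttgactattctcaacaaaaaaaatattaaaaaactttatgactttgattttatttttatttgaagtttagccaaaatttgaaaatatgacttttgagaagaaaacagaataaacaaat
ARR7: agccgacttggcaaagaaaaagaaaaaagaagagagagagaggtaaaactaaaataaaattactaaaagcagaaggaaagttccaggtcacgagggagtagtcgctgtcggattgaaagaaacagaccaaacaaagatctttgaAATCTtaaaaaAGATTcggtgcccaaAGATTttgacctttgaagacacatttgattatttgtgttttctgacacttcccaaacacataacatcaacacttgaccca
The ARR7 window holds 3 matches to AGATT and the ARR5 window 0. Over all 27443 protein-coding genes, 63.7% of windows of this length hold AGATT and 1.69% hold AGATACG, and among the 54 members with a single locus 36 hold the shorter motif. Among the type A genes 7 of 9 hold AGATT and 0 hold AGATACG.

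On the supply side, LOG1 fell and no IPT or CKX gene passed the test. LOG1 (AT2G28305), an enzyme that releases free-base cytokinin from its nucleotide, measured 26.96, 27.72 and 28.79 CPM for WT and 24.78, 23.83 and 23.66 CPM for hrlp-2. Every hrlp-2 library was below every WT library, and hrlp-2 differed from WT by -0.18 on the log2 scale (SE 0.0598; limma adjusted p = 0.0263). The call was lost when leaving out WT replicate 2 (adjusted p = 0.0529), WT replicate 3 (0.121), hrlp-2 replicate 2 (0.067) or hrlp-2 replicate 3 (0.0872). LOG8 measured 36.35 ± 3.20 CPM for WT and 34.95 ± 1.59 CPM for hrlp-2 (adjusted p = 0.748), and LOG7, a low-level member, 1.08 ± 0.456 and 1.34 ± 0.447 CPM (adjusted p = 0.521), with hrlp-2 replicate 3 at least 1.5-fold below both other hrlp-2 libraries. The row named LOG2 measured 28.30 ± 1.41 and 27.93 ± 1.41 CPM, a name carried by LONELY GUY 2 (AT2G35990) and by the ubiquitin ligase LOSS OF GDU 2 (AT3G09770), so its identity is unresolved. LOG4, LOG5 and LOG6 were under the filter. LOG5 measured 0.85, 0.49 and 0.50 CPM for WT and 0.24, 0.40 and 0.32 CPM for hrlp-2, without overlap, and was not tested. LOG4 and LOG6, at 0.28 and 0.40 CPM or less, had groups that overlapped.

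IPT3, which makes cytokinin precursors from free nucleotides, measured 12.93 ± 0.512 CPM for WT and 12.44 ± 1.47 CPM for hrlp-2 (adjusted p = 0.819), and IPT2, which modifies transfer RNA, 7.21 ± 0.251 and 7.40 ± 0.639 CPM (adjusted p = 0.801). IPT1, IPT5 and IPT7 were under the filter, at 0.56 CPM or less. All 4 tested CKX genes had log2 fold changes between 0.09 and 0.14, and their groups overlapped. CKX7, the cytosolic oxidase, measured 15.04 ± 0.894 CPM for WT and 16.29 ± 0.736 CPM for hrlp-2 (adjusted p = 0.256). CKX4 measured 6.90 ± 0.257 and 7.60 ± 1.01 CPM, CKX6 6.41 ± 0.333 and 6.86 ± 0.397 CPM, and CKX5 1.1 ± 0.124 and 1.18 ± 0.197 CPM. CKX3 was at 0.30 CPM or less. CKX6 overlaps a noncoding transcript, AT3G63445, on the opposite strand by 2234 bases. CKX5 overlaps AT1G75440 by 665 and AT1G09557 by 217 bases on the opposite strand, and AT1G09553 by 243 bases on its own. The part of these overlaps in the CKX5 and CKX6 values was not tested.

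PUP18 had the largest fold change of the tested members, and 4 other purine permeases rose with it. Of the 12 tested PUP rows 41.7% were called, beside 20.4% over all rows tested. PUP18 (AT1G57990) measured 23.94, 22.17 and 22.32 CPM for WT and 46.97, 49.45 and 46.59 CPM for hrlp-2. The lowest hrlp-2 library was nearly double the highest WT library, and hrlp-2 differed from WT by 1.07 on the log2 scale (SE 0.0548; limma adjusted p = 4.84e-16), an absolute change exceeded by 0.381% of the rows tested. PUP14 (AT1G19770), a plasma membrane carrier known to take up cytokinins and to limit their signalling, measured 35.38, 36.14 and 36.39 CPM for WT and 45.47, 47.45 and 47.70 CPM for hrlp-2. Its groups were apart by more than 9 CPM, with a log2 fold change of 0.40 (SE 0.0484, adjusted p = 1.61e-07). PUP14 overlaps CNGC8 on the opposite strand by 169 bases, and CNGC8 was at 0.12 to 0.70 CPM in all libraries.

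PUP1 (AT1G28230), a carrier of adenine and cytokinin found at leaf water pores, measured 11.57, 12.99 and 12.27 CPM for WT and 15.01, 15.14 and 15.70 CPM for hrlp-2. The groups did not overlap, with a log2 fold change of 0.33 (SE 0.0817, limma adjusted p = 0.00381). PUP22 measured 11.27, 14.46 and 12.86 CPM for WT and 18.07, 17.43 and 16.34 CPM for hrlp-2, also without overlap (log2 fold change 0.44, SE 0.0855, adjusted p = 0.000268). The PUP22 name has no locus in the RefSeq gene table, so no position is given for it. PUP7 (AT4G18197) measured 7.06, 6.52 and 6.56 CPM for WT and 8.10, 8.69 and 9.21 CPM for hrlp-2. The groups did not overlap (log2 fold change 0.36, SE 0.108, adjusted p = 0.0146), and the call was lost when leaving out WT replicate 2 (0.0539) or hrlp-2 replicate 3 (0.0743). PUP1, PUP14, PUP18 and PUP22 stayed past the threshold in all 15 alternatives.

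**Figure D3:**
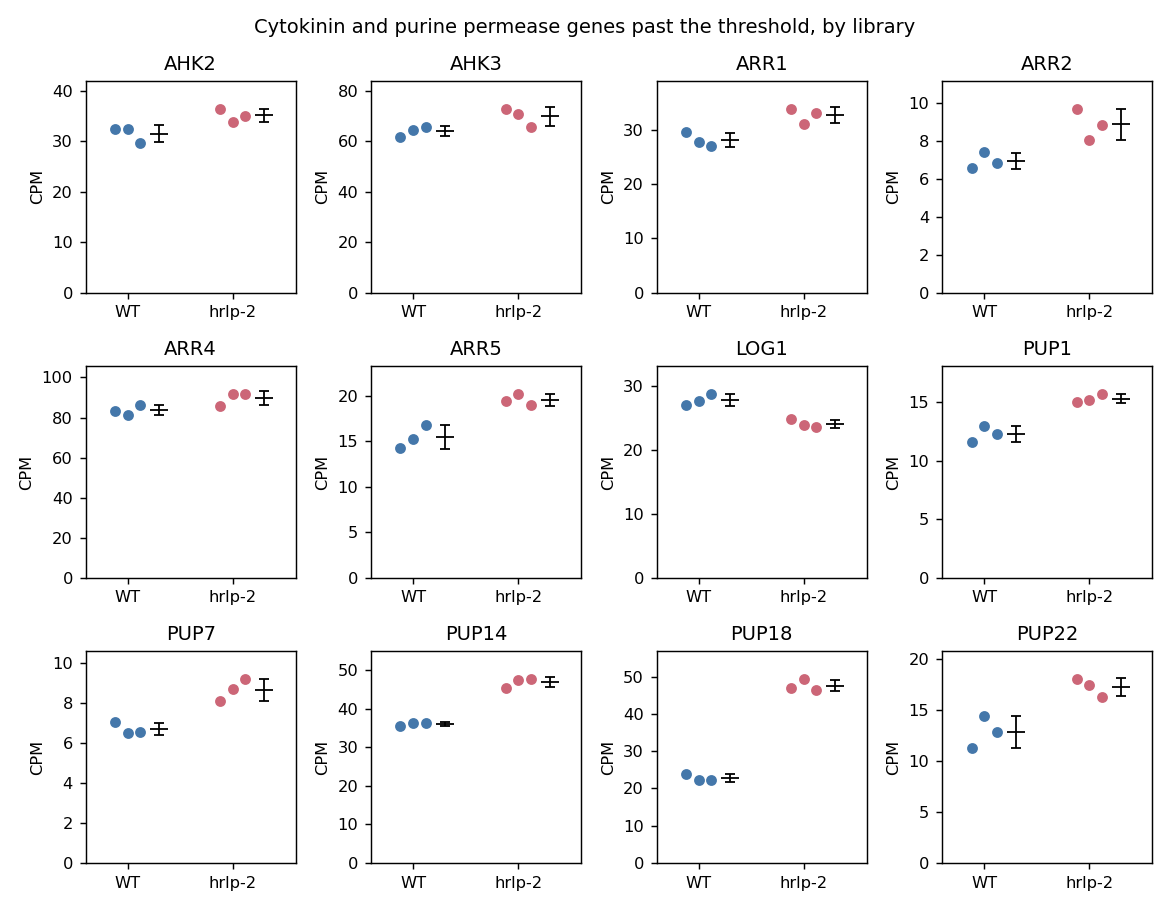
CPM in each library for the 12 members past the threshold, with the bar at the group mean and its SD (n = 3), each axis starting at 0. Only AHK3 and ARR4 have groups that overlap, and PUP18 goes from 22.8 to 47.7 CPM on average.

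The other tested purine permeases did not pass. PUP23 measured 6.29, 7.76 and 6.83 CPM for WT and 7.47, 7.94 and 9.12 CPM for hrlp-2 (log2 fold change 0.24, adjusted p = 0.150), and the groups overlapped. PUP11 measured 15.19 ± 0.777 and 15.26 ± 0.980 CPM, PUP13 12.07 ± 0.913 and 11.83 ± 0.516 CPM, and PUP21 8.99 ± 0.622 and 9.46 ± 0.966 CPM. PUP10 measured 3.14 ± 0.534 and 3.86 ± 1.18 CPM, while PUP2 and PUP4 were below 1 CPM on average in both groups. The summed PUP level was 139.97, 140.60 and 137.84 CPM for WT and 184.36, 187.35 and 187.70 CPM for hrlp-2. PUP18 did not carry all of this difference, since without it the sum was 116.7 ± 1.55 CPM for WT and 138.8 ± 2.02 CPM for hrlp-2. Between neighbours, PUP17, which lies 2237 bases from PUP18 and shares an identical run of 38 bases with it, was at 0.31 CPM or less in every library. PUP8, which lies 365 bases from PUP7 and shares a run of 35 bases, was at 0.34 CPM or less. The PUP names with no locus (PUP13, PUP21, PUP22 and PUP23) were not in these comparisons of position and sequence. PUP7 overlaps AT4G18203 on the opposite strand by 814 bases, and no row was matched to that locus. PUP10 overlaps AT4G18215 on the opposite strand by 1061 bases.

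The windows before the starts of PUP18 and PUP14 are shown because these genes had the smallest adjusted p-values among the members. They lie at chr1:21443037-21443286 on the minus strand and at chr1:6832075-6832324 on the plus strand of TAIR10.1, and capitals again mark AGATT on either strand.
PUP18: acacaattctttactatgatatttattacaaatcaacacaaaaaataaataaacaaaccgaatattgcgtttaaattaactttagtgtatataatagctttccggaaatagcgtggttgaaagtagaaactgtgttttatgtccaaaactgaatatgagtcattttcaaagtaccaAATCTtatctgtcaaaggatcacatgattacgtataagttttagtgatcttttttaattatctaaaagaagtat
PUP14: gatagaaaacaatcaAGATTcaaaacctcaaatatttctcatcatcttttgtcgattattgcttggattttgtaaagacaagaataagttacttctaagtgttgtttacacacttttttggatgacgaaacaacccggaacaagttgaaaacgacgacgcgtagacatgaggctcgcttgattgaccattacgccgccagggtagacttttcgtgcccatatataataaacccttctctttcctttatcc
Each window holds 1 match. The GC content is 26.4% for PUP18 and 38.0% for PUP14, and among the PUP genes with a single locus 9 of 12 windows hold the motif.

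Among the 54 members with a single locus, compared per kilobase of transcript, the WT levels ran highest for ARR7 at 42.6 and ARR4 at 41.5 CPM per kb, followed by AHP3 at 27.2, PUP14 at 25.4 and LOG8 at 24.6 CPM per kb. The rows named AHP2 and LOG2 and the 4 PUP names with no locus have no transcript length here and are not in this order. In hrlp-2, ARR4 stood at 44.5, ARR7 at 39.5, PUP14 at 33.1 and PUP18 at 25.7 CPM per kb, the last from 12.3 CPM per kb in WT. Among the receptors, AHK3 at 14.2 CPM per kb in WT was about double AHK2 at 7.07 and AHK4 at 6.26 CPM per kb. The 16 members under the filter ranged from 0 to 0.85 CPM, and a floor of 3 reads is 0.119 to 0.15 CPM, and differences between the groups were not tested for them. The filter fell between LOG5, whose third-highest library was at 0.49 CPM, and PUP4, at 0.78 CPM.

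**Figure D4:**
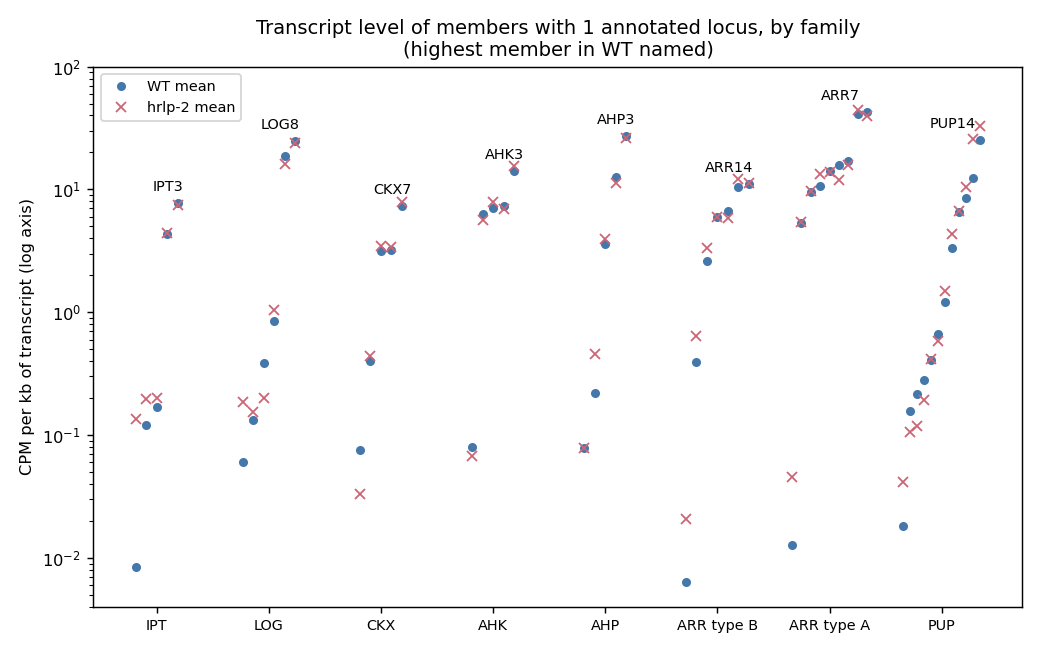
Mean level of the members with a single locus in each group, in CPM per kilobase of transcript on a log axis. Most WT and hrlp-2 points lie close together, and PUP18 moves from 12.3 to 25.7 CPM per kb.

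Of 31 other cytokinin pathway genes listed, 24 had a row and 23 were tested; KMD1, KMD3 and ADK2 rose, EXPA1 fell and 19 did not pass. That is 17.4% called, beside 20.4% over all rows tested. The KMD genes encode F-box proteins that target type B ARRs for degradation. KMD1 (AT1G80440) measured 21.18, 22.26 and 22.99 CPM for WT and 35.70, 38.01 and 34.25 CPM for hrlp-2. Its groups were apart by more than 11 CPM, with a log2 fold change of 0.71 (SE 0.0598, limma adjusted p = 8.69e-11). KMD3 (AT2G44130) was low, at 1.02, 0.22 and 0.17 CPM for WT and 1.83, 3.60 and 1.92 CPM for hrlp-2. Of its WT libraries only replicate 1 reached 0.5 CPM, so the row passed the filter through its hrlp-2 libraries. WT replicates 2 and 3 were close to the floor of 3 reads, so the size of its fold change is uncertain. All hrlp-2 libraries were above all WT libraries (log2 fold change 1.67, SE 0.266, adjusted p = 1.5e-05), while KMD2 (AT1G15670) measured 4.09 CPM for WT and 4.47 CPM for hrlp-2 (adjusted p = 0.605). ADK2, an adenosine kinase that also converts cytokinin ribosides to nucleotides, measured 124.1 ± 4.59 CPM for WT and 131.4 ± 1.12 CPM for hrlp-2 (log2 fold change 0.10, adjusted p = 0.0229). Its call was lost on the CPM without rescaling (adjusted p = 0.0809) and when leaving out WT replicate 3 (0.155), hrlp-2 replicate 1 (0.0692) and hrlp-2 replicate 2 (0.0683) in turn. EXPA1, an expansin that loosens cell walls, fell from 194.5 ± 6.34 to 160.3 ± 3.87 CPM (log2 fold change -0.26, adjusted p = 8.03e-08). Cytokinin glucosyltransferases (UGT76C1, UGT76C2, UGT85A1), the transporter gene ABCG14 and CRF1 to CRF6, which encode cytokinin response factors, were among the genes that did not pass.

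Of 22 loci of the same families with no row under the name pattern, 6 had a row under another name, and these were chosen after their values were seen. PUP5 was among them, at 4.30, 3.41 and 4.71 CPM for WT and 7.07, 5.89 and 6.17 CPM for hrlp-2. All hrlp-2 libraries lay above all WT libraries (log2 fold change 0.59, SE 0.136, limma adjusted p = 0.00164), and it passed in all 15 alternatives. CKX1, IPT9 and LOG3 did not pass, and PUP12 and PUP19 were under the filter.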

How the data were processed

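RNA was measured in 6 libraries, 3 of WT and 3 of hrlp-2, grouped and numbered by the sample titles. Per the labels' protocols, libraries were made with a directional kit. The submitters' processing notes name STAR 2.7.3a and the TAIR10 build. Neither the read counter, its strand setting nor the annotation is stated in them. The authors deposited CPM, read counts scaled to the library total. Between 88.0% and 89.5% of values under 2 CPM lay on whole multiples of 1 step per library (within 0.0051 CPM), against 20.4% to 25.7% by chance, so reads were not recovered throughout and limma was run on CPM. The steps give an estimated 20.0 to 25.2 reads per CPM, and the floor of 3 reads covers counting error only. A row with no name was left out.

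The filter kept rows that reached 0.5 CPM in 3 or more libraries. Scaling used trimmed-mean-of-M factors (0.990 to 1.01; 30% of M and 5% of A values trimmed), and after adding a pseudocount of 0.5 CPM the log2 values were tested with limma 3.58.1 in R 4.3.3 with an intensity trend, two-sided. Fold changes on this scale understate the change of low genes. An exact permutation test of 3 against 3 cannot go below p = 0.1. The procedure was tested on simulated data with a set dispersion of 0.003. It recovered 50 of 50 rows changed 2-fold, 48 of 50 changed 1.5-fold and 19 of 50 changed 1.2-fold. A gene that did not pass may therefore still have changed, by 1.2-fold or by more. The changed rows were drawn from those averaging at least 2 CPM, so recovery at lower levels was not examined. Loci, transcript lengths, overlaps and 250-base windows came from the RefSeq annotation of TAIR10.1; 54 member names had 1 locus, 2 had 2 and 4 (PUP13, PUP21, PUP22 and PUP23) had none. ADK1 and CKI1 were not matched because their names are shared with another gene.

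The members, gene lists and tests were chosen with earlier results of these data known. Named with library values were all members past the threshold, AHK2, AHK3, AHK4 and the tested type A ARRs. The members AHP5, ARR11, ARR12, LOG5 and PUP23, and the library values of AT2G09250 beside ARR8, were added after their values were seen. From the other pathway genes those past the threshold were named, up to 6, and KMD2, the glucosyltransferases, ABCG14 and the CRF genes were added. WT replicate 3 was farther from its group in some genes (mean chi-square per gene 12.8 and 10.8 against 2.26 to 2.50 for other pairs within groups). The median chi-square, 0.805 to 0.912, was above the 0.455 of counting noise, so no libraries were merged.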

Additional observations from a re-analysis of the deposited data

How the results depend on the processing

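Alternatives were pseudocounts of 0.1 and 1 CPM, relative log expression and upper-quartile factors, no rescaling, no filter, a filter of 1 CPM, limma-voom on estimated reads, the replicate block and leaving out each library, 15 in all. Among members without PUP, 6 higher and 1 lower became 5 higher and 2 lower without rescaling, and 6 higher and 2 lower with a filter of 1 CPM; leaving out single libraries gave 3 to 5 higher and 0 to 2 lower. Without rescaling, ARR4 was lost (limma adjusted p = 0.0602) and ARR8 was added (0.0436). With the filter of 1 CPM, ARR8 was the addition (0.0417). Why these calls shifted was not tested. With the replicate block, 2 were lower, ARR8 being the addition (adjusted p = 0.018), and 2057 rows rose and 1727 fell over all genes, beside 2059 and 1736 without it. The replicate numbers did not pair the samples: deviations of same-numbered libraries correlated at -0.03 for each number over 12483 rows. PUP members called higher numbered 4 to 5 and lower 0 when single libraries were left out. The PUP median log2 fold change, 0.25, ran from 0.08 with no filter to 0.31 without WT replicate 2. No rescaling moved the median of all rows to -0.02. The 12 called members, KMD1, KMD3, ADK2, EXPA1 and PUP5 kept their direction in every alternative; the other listed genes were not rerun singly. Counts of 10 to 12.6 estimated reads at the filter, and 3 libraries a group, limit the precision of low members.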
